A study of Rattus norvegicus with 18 samples.

Results

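Interferon-stimulated genes are the genes that cells switch on after a virus is sensed, and the 9 described here are Irf7, Mx1, Mx2, Isg15, Oas1a, Ifit2, Ifit3, Rsad2 and Usp18. They were chosen by RefSeq symbol and take 11 of the 15075 rows of the mRNA count table, since Mx1 is listed under 3 transcript identifiers. The libraries were made from poly(A) RNA of the dorsal root ganglia (DRG) of segments C6 to C8, from 18 Lister Hooded rats in 3 groups of 6, with the ganglia of 1 side pooled within each rat. Naïve rats (rats 41, 42, 43, 44, 45 and 49) had no operation and no vector. The bPYX+GFP rats (rats 5, 15, 18, 21, 52 and 57) and the bPYX+NT3 rats (rats 2, 11, 17, 23, 39 and 40) had both corticospinal tracts cut at the medullary pyramids. A day later an adeno-associated virus (AAV1) carrying the gene for green fluorescent protein or for human neurotrophin-3 was injected into the forelimb flexor muscles of 1 side, and the ganglia of that side were taken 10 weeks after injury. The CMV promoter that drove both transgenes is active in many cell types. Since injury, injection and vector came together in both treated groups, a difference from naïve rats cannot be assigned to the AAV, while bPYX+NT3 and bPYX+GFP rats differed in the transgene alone.

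The groups follow the headings of the authors' count table of all rats, which lead to samples whose titles name the group. The counts of single rats were also recorded by sample, and for 17 of the 18 rats the title of that sample names another group. These counts were identical to the table's column of the same rat number in 18 of 18 rats. Grouping each rat by the sample that holds its single counts (the single-count groups) turned the direction of 22 of the 32 differences given here for these genes. Every direction below thus rests on the table's headings. The libraries held 10057787 to 16002410 reads on genes. Reads on the neurofilament gene Nefh (20054 to 55204 per library) and on the peripheral myelin gene Pmp22 (16368 to 29441) were abundant in all 18 libraries.

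Type I interferons leave a cell that has sensed foreign nucleic acid and bind the receptor subunits Ifnar1 and Ifnar2 on that cell and its neighbours. The kinases Jak1 and Tyk2 then activate transcription factors, among them Stat2 with Irf9, that bind an interferon-stimulated response element in the promoters of target genes. The 9 genes are classic targets of this route. Irf7 feeds back on interferon production, the Mx, Oas, Ifit and Rsad2 proteins interfere with viral RNA or particles, Isg15 is attached to proteins like ubiquitin, and Usp18 removes Isg15 and dampens the receptor. The question put to the data was whether such a programme was raised in the ganglia 10 weeks after AAV delivery.

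The response element was sought in the RefSeq promoter windows (build GRCr8, from 250 bases before to 50 bases after each gene's start), which were listed for 5 of the 9 genes (Irf7, Mx1, Oas1a, Ifit3 and Rsad2) and not for Mx2, Isg15, Ifit2 and Usp18. The letters GAAANNGAAA, read on both strands with overlaps allowed, occurred in 4 of these 5 windows and in 3.92% of all 33469 windows. Among the other interferon-stimulated genes listed for context they occurred in 27 of 45 windows. The 4 stretches that hold the letters are shown because they are what these genes share apart from their names. They are written 5′ to 3′ on the gene's strand, with the match in capitals (as the reverse complement where the match is on the opposite strand).
Irf7, chr1:205800053-205800122, minus strand, 1 match: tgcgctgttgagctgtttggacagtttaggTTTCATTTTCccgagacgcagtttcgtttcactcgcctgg
Oas1a, chr12:41330395-41330465, plus strand, 2 overlapping matches: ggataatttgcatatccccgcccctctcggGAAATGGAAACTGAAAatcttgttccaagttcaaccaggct
Ifit3, chr1:241527252-241527321, plus strand, 1 match: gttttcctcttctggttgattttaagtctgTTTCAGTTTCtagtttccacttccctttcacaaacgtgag
Rsad2, chr6:48788228-48788297, minus strand, 1 match: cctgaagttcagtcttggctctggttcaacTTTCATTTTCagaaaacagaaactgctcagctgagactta
A match is a description of the letters and does not show that a factor binds there. The Mx1 window held 0 matches.

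No member was called higher in an AAV-injected group. Of the 9 genes, 8 had more than 10 reads in at least 6 rats and were tested, and in each of the comparisons with naïve rats all 8 had a log2 fold change below 0. Over all genes tested the share below 0 was 43.9% for bPYX+GFP, 49.9% for bPYX+NT3 and 48.4% for both injected groups. The group medians were mixed, with the bPYX+GFP median above the naïve median in 4 of the 8. A gene is called here when the unadjusted p of edgeR's quasi-likelihood test is under 0.05. Between bPYX+GFP and naïve rats 0 of the 8 were called, against 3.25% of the 11601 genes tested. Between bPYX+NT3 and naïve rats 1 of the 8 was called (Rsad2, lower), against 6.01% of 11693 genes. Between bPYX+NT3 and bPYX+GFP rats 0 of the 8 were called, against 1.73% of 11623 genes, and when both injected groups were set against naïve rats in 1 fit it was 1 of the 8 (Mx2, lower), against 4.16% of 11821 genes. None of the 8 passed after Benjamini-Hochberg adjustment over all genes tested, where the lowest adjusted p of edgeR's test among them was 0.607, and by that measure 0 genes of the whole table passed in any of the 4 comparisons. Adjusted calls over the whole table, in the order given, were 13, 0, 0 and 14 with edgeR's likelihood ratio test and 12, 0, 0 and 17 with DESeq2. At an unadjusted p under 0.05 either of these tools called 0, 3, 1 and 1 of the 8 genes, all lower, where the additions were Mx2 and Usp18 with NT3 against naïve rats and Rsad2 with NT3 against GFP. Over all genes tested, in the same order, the likelihood ratio test called 342, 744, 184 and 460 and DESeq2 373, 819, 211 and 505. Naïve rat 45 was the highest of the 18 rats in all 8 genes, and naïve rat 42 was among the first 3 in 7. The part of these 2 rats in the lower averages of treated rats was not tested. Between bPYX+NT3 and bPYX+GFP rats, a comparison without naïve rats, the log2 fold change was also below 0 in all 8. Over all genes tested there, 48.7% were below 0. It was -0.01 for Isg15, -0.02 for Irf7 and -0.04 for Ifit3. Leaving out 1 rat turned these above 0 in 4, 3 and 3 of 12 fits, and the other genes in none. The bPYX+NT3 median was above the bPYX+GFP median in 2 of the 8. Since the 8 genes moved together from rat to rat (median Spearman's rho 0.61), these directions are not 8 separate results.

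**Figure D1:**
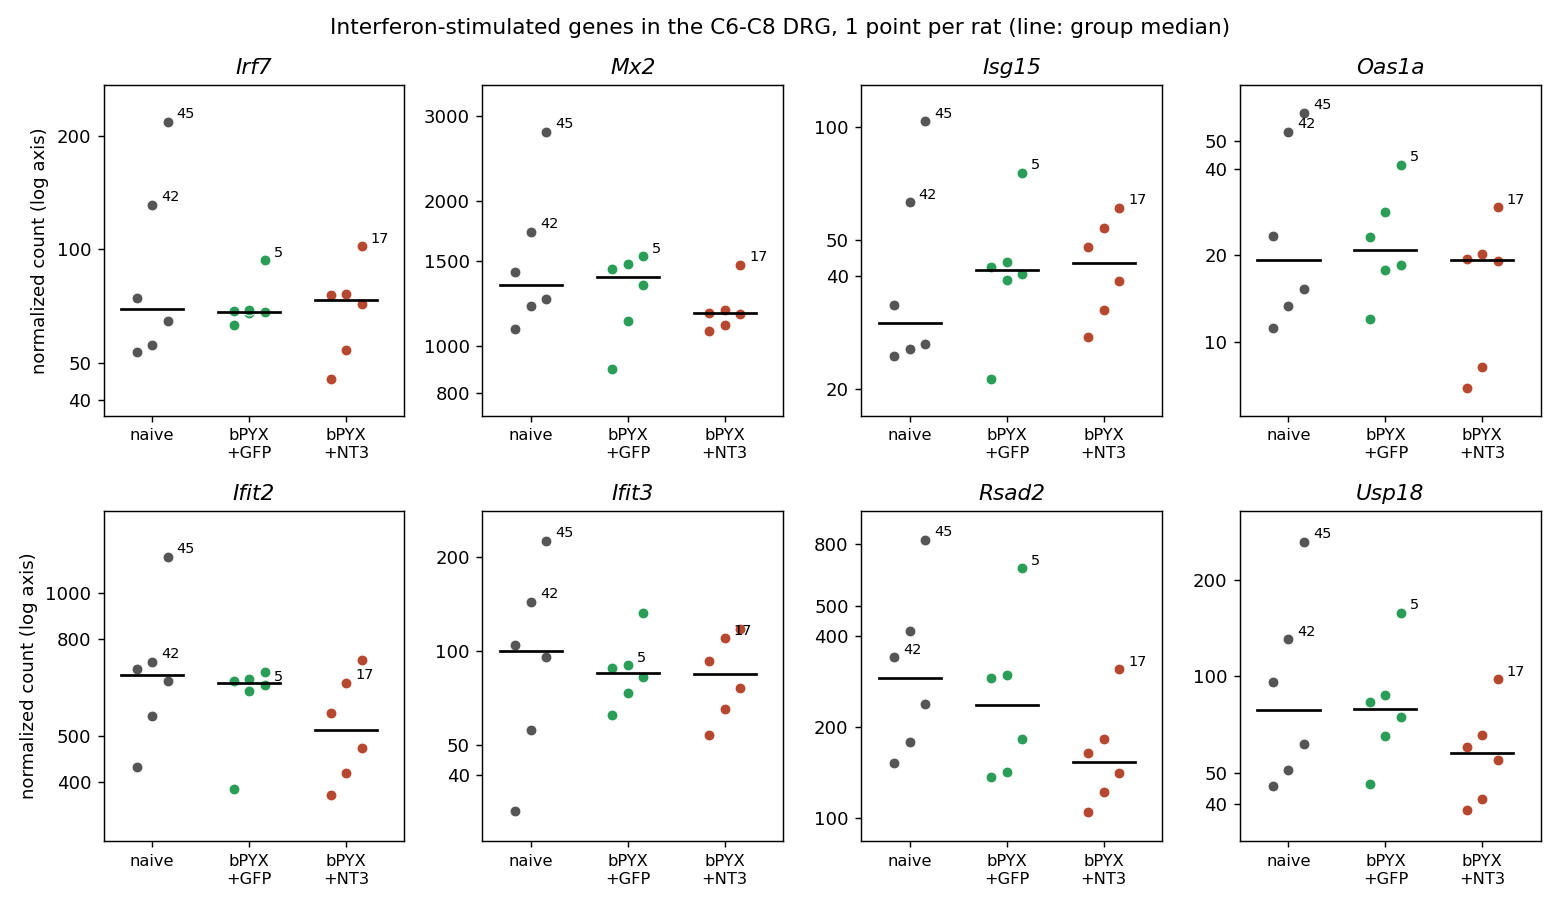
Normalized counts of the 8 tested genes, 1 point per rat on a log axis, with rats 45, 42, 5 and 17 numbered and a line at each group's median. Rat 45 is the highest of the 18 points in every panel, and the 3 groups overlap in all 8.

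Normalized counts are reads rescaled by edgeR's TMM factors to a library of average size, and they are not corrected for transcript length, so levels are not compared between genes. Below, with GFP and with NT3 stand for the bPYX+GFP and the bPYX+NT3 rats. Irf7, the transcription factor that amplifies interferon production, lay between 53.4 and 218.3 in naïve rats (median 69.6), between 63.0 and 93.5 with GFP (median 68.3) and between 45.3 and 101.9 with NT3 (median 73.6). The naïve values above 100 were those of rats 45 (218.3) and 42 (131.4), and the other 4 naïve rats lay between 53.4 and 74.4. The groups overlapped. Against naïve rats the log2 fold change was -0.48 ± 0.32 (SE) with GFP (exact permutation p = 0.476) and -0.50 ± 0.34 with NT3 (p = 0.407), and between the injected groups it was -0.02 ± 0.18 (p = 0.771).

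Mx1 could not be tested. In the counts of single rats its 6 transcript identifiers, 3 of which are in the table, gathered 6 reads in all over the 18 rats, and no rat had more than 2. Reads that fit several identifiers of a gene were not counted in this table, and genes with several identifiers had a median of 22 reads over the 18 rats against 2339 for genes with 1, so that the level of Mx1 RNA is unknown here.
Its relative Mx2, another dynamin-like GTPase that blocks viruses, is counted under 1 identifier and had 1085 to 2787 normalized counts in naïve rats (median 1337), 896.3 to 1537 with GFP (median 1390) and 1073 to 1477 with NT3 (median 1171). Rat 45 (2787) and rat 42 (1728) were above all 12 injected rats, while the remaining naïve rats fell among them. Its log2 fold change was -0.27 ± 0.21 with GFP (exact permutation p = 0.400), -0.40 ± 0.19 with NT3 (p = 0.132) and -0.12 ± 0.12 between NT3 and GFP (p = 0.470). Set against naïve rats, both injected groups in 1 fit gave -0.34 ± 0.16 (edgeR p = 0.0493, exact permutation p = 0.119). That call was lost without rat 45 (-0.10) and without rat 42 (-0.31), and it was kept in 7 of the 18 fits that left out 1 rat.

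Oas1a senses double-stranded RNA and makes oligoadenylates. It was the lowest counted of the tested members, with 7 to 71 reads per rat, and its normalized counts ran from 11.2 to 62.7 in naïve rats (median 19.3), from 12.0 to 41.3 with GFP (median 20.9) and from 6.91 to 29.4 with NT3 (median 19.3). Rats 45 and 42 stood above every other rat, and the 3 medians lay close together. For Oas1a the log2 fold change was -0.37 ± 0.44 with GFP (exact permutation p = 0.792), -0.82 ± 0.47 with NT3 (p = 0.273) and -0.45 ± 0.36 between NT3 and GFP (p = 0.251).

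Ifit2 and Ifit3 belong to a family of proteins that bind foreign RNA and restrain its translation. Ifit2 had 430.2 to 1194 normalized counts in naïve rats (median 671.9), 387.2 to 682.0 with GFP (median 645.9) and 374.6 to 721.9 with NT3 (median 515.9). Only rat 45 (1194) stood clear of the rest, since rat 42 (716.9) was below NT3 rat 23 (721.9). Its log2 fold changes were -0.22 ± 0.20 with GFP (exact permutation p = 0.483), -0.41 ± 0.22 with NT3 (p = 0.169) and -0.19 ± 0.17 between NT3 and GFP (p = 0.333).
Ifit3 had 30.5 to 226.2 in naïve rats (median 100.0), 62.2 to 132.7 with GFP (median 85.2) and 53.9 to 118.1 with NT3 (median 84.4). The naïve group held both the highest rat (45) and the lowest (43), a 7.41-fold range. Ifit3 differed by a log2 fold change of -0.31 ± 0.37 with GFP (exact permutation p = 0.844), -0.36 ± 0.37 with NT3 (p = 0.775) and -0.04 ± 0.22 between NT3 and GFP (p = 0.833).

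Rsad2, also called viperin, makes a nucleotide that stops viral RNA synthesis, and it showed the lowest values with NT3. In naïve rats it ran from 151.5 to 827.1 normalized counts (median 288.8), with GFP from 136.1 to 668.1 (median 236.5) and with NT3 from 104.6 to 309.7 (median 152.6). The bPYX+NT3 rats overlapped both other groups, and 5 of 6 were below the naïve median. Against naïve rats the level with NT3 was 0.48 times as high (95% interval 0.27 to 0.85), a log2 fold change of -1.07 ± 0.39 (edgeR p = 0.0155 and adjusted p = 0.607, exact permutation p = 0.0563). The call held in 11 of the 12 fits that left out 1 rat and was lost without rat 45 (-0.63). With GFP the log2 fold change of Rsad2 was -0.33 ± 0.45 against naïve rats (exact permutation p = 0.539). Between NT3 and GFP it was -0.75 ± 0.38 (exact permutation p = 0.184), and -0.30 without GFP rat 5, whose value was 668.1.

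Isg15, the ubiquitin-like protein, differed least between the group means. It had 24.6 to 103.4 normalized counts in naïve rats (median 29.97), 21.3 to 75.3 with GFP (median 41.5) and 27.6 to 60.8 with NT3 (median 43.3). Naïve rats other than 45 and 42 lay between 24.6 and 33.5, and 5 of the 6 rats in each injected group were above the naïve median. The fitted log2 fold changes of Isg15 were -0.09 ± 0.38 with GFP (exact permutation p = 0.879), -0.10 ± 0.36 with NT3 (p = 0.823) and -0.01 ± 0.27 between NT3 and GFP (p = 0.918). The value turned to 0.32 with GFP and 0.31 with NT3 without rat 45, and to 0.02 and 0.01 without rat 42.
Usp18, the protease that takes Isg15 off proteins and restrains the interferon receptor, had 45.6 to 264.2 in naïve rats (median 78.6), 46.0 to 157.9 with GFP (median 79.1) and 38.1 to 97.99 with NT3 (median 57.5). Rat 45 and GFP rat 5 (157.9) were the highest. Usp18 differed by a log2 fold change of -0.34 ± 0.42 with GFP (exact permutation p = 0.766), -0.86 ± 0.40 with NT3 (p = 0.184, edgeR p = 0.0506) and -0.52 ± 0.29 between NT3 and GFP (p = 0.145).

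The precision of these tests was low. The SE of a log2 fold change was between 0.20 and 0.45 for the 8 genes with GFP against naïve rats and between 0.19 and 0.47 with NT3, while its median over all genes tested was 0.11 in both comparisons. The upper end of the 95% interval of the fold was lowest for Mx2 and highest for Isg15 with GFP (1.13 and 1.66 times the naïve level), and with NT3 it was lowest for Rsad2 and highest for Isg15 (0.85 and 1.59 times). Rises beyond these bounds lie outside the intervals of the fits on all rats, and smaller ones could not be told from no change. All p-values measure the spread between rats, each of which gave 1 library.

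**Figure D2:**
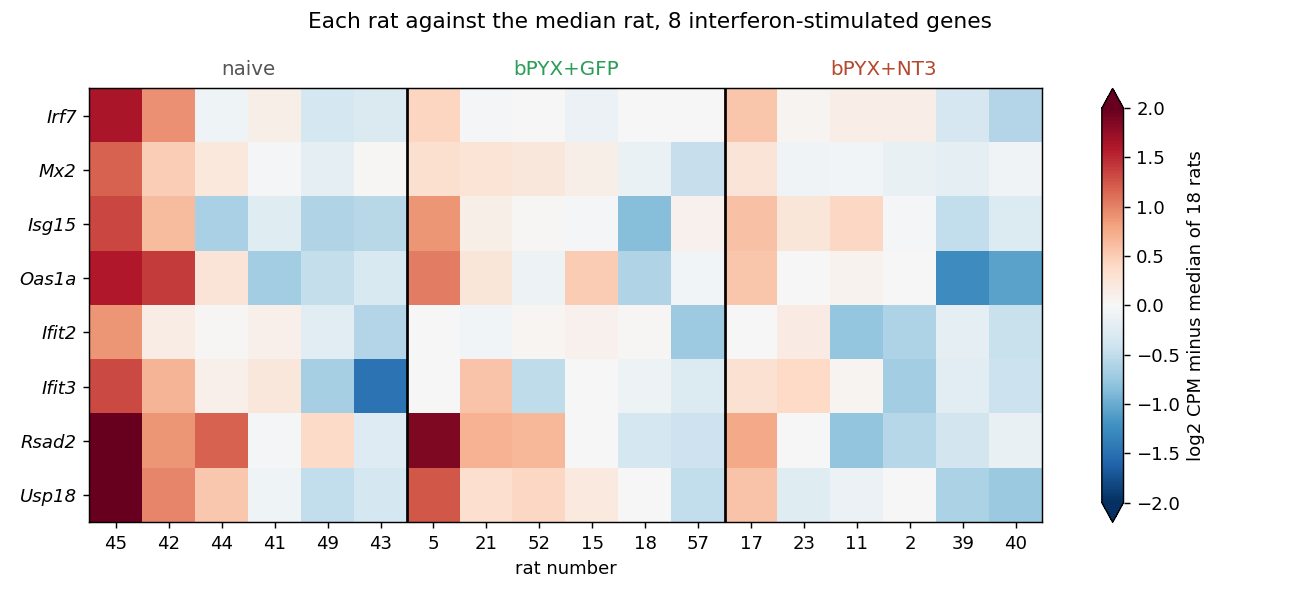
Log2 CPM (reads relative to the TMM-scaled library size) of each gene in each rat minus the gene's median over the 18 rats, with rats sorted within groups by the mean of the 8 genes. Naïve rats 45 and 42 and GFP rat 5 are red in most rows, rats 39 and 40 of the NT3 group are blue in most, and values beyond 2 share the end colours.

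The 8 genes moved together from rat to rat more clearly than between groups. Their mean log2 CPM was 4.79 in naïve rat 45, 4.04 in naïve rat 42, 3.99 in bPYX+GFP rat 5 and 3.72 in bPYX+NT3 rat 17, and it was 3.54 or lower in the other 14 rats, down to 2.80 in naïve rat 43. Rat 45 was first of the 18 rats in 8 of 8 genes, rat 42 was among the first 3 in 7 and GFP rat 5 in 5. The group means of this score were 3.54 ± 0.75 for naïve rats, 3.38 ± 0.37 with GFP and 3.14 ± 0.35 with NT3 (SD, n = 6 each). Between the genes, Spearman's rho over the 18 rats ran from 0.27 (Isg15 with Ifit2) to 0.87 (Mx2 with Usp18), with a median of 0.61 over the 28 pairs. Without rats 42 and 45 the median was 0.46, so part of the common movement was present among the other 16 rats. These values describe 1 set of libraries in which all genes share each rat's depth and scaling.

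The spread was widest in naïve rats. The SD of log2 CPM over the 6 naïve rats had a median of 0.86 over the 8 genes and 0.17 over all 11821 genes, and each of the 8 lay between the 91.5 and the 99.0 percentile of all genes in this group. With GFP the medians were 0.45 and 0.22, and with NT3 they were 0.42 and 0.21. Rats 42 and 45 were the 2 highest of the 18 in 4 of the 8 genes (Irf7, Mx2, Oas1a and Ifit3), against 0.457% of all genes tested. This pair was picked for its high values in the same 8 genes, so the shares are a description and not a test.

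The comparisons with naïve rats were therefore repeated without rats 42 and 45, a step chosen after their values were seen and for those values, so that no test is read from it. Of the 24 log2 fold changes against naïve rats, 18 then turned above 0. With GFP, all 8 did, between 0.06 for Ifit2 and 0.67 for Isg15, with 0.60 for Oas1a, 0.44 for Usp18 and 0.21 for Irf7. With NT3, 4 did (Isg15 0.66, Ifit3 0.27, Irf7 0.19 and Oas1a 0.15), while Rsad2 stayed lowest at -0.52 ± 0.33. The order of the group medians, which single rats move less, was mixed in the same way. With all rats the bPYX+GFP median was above the naïve median in 4 of the 8 genes and the bPYX+NT3 median in 2, and the bPYX+NT3 median was above the bPYX+GFP median in 2.

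**Figure D3:**
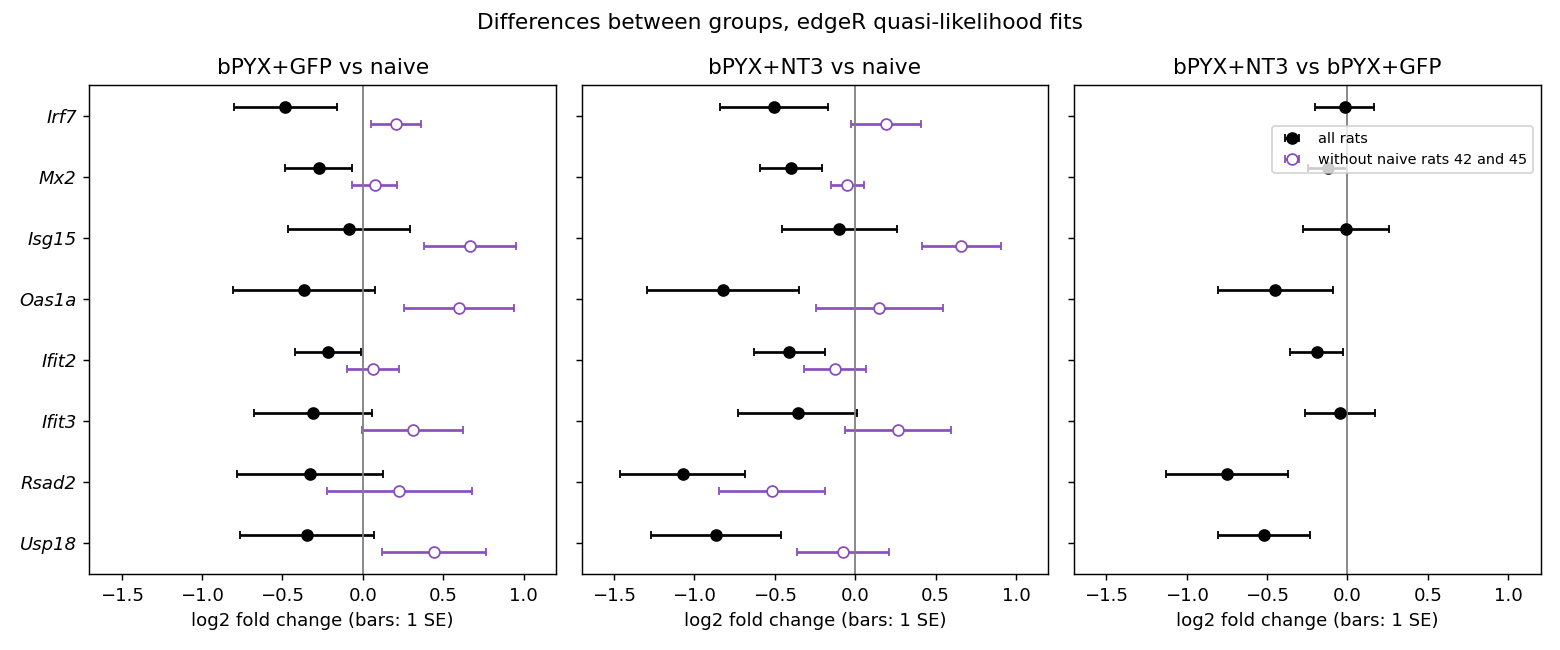
Log2 fold changes of the 8 genes (x axis, bars 1 SE) in 3 comparisons, with all rats (filled) and without naïve rats 42 and 45 (open). The filled points are all below 0, and the open points of bPYX+GFP against naïve rats are all above 0.

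Other properties of the 2 rats were as follows. Rats 42 and 45 had 16002410 and 14883568 reads on genes, among the deepest of the 18 libraries, and their shares of reads outside annotated genes (33.0% and 34.2%) lay within the range of all rats (30.8% to 34.6%). All 9 macrophage markers had reads in all 18 rats, and their summed level was 109.3 to 204.6 CPM in naïve rats, 82.4 to 164.6 CPM with GFP and 100.4 to 221.7 CPM with NT3. Rat 42 had rank 2 of the 18 in this sum (204.6 CPM) and rat 45 rank 5 (160.2 CPM). No list of cell markers held a gene in which these 2 rats were the 2 highest, a rule that 4 of the 8 genes met. In some macrophage and T and NK cell markers both rats were among the first 3. For the 10 T and NK cell markers the sum was 3.63 to 26.8 CPM in naïve rats, 5.57 to 27.6 CPM with GFP and 5.71 to 35.0 CPM with NT3, with rat 42 at rank 5 and rat 45 at rank 7. The genes S100a8 and S100a9 of granulocytes summed to 140.0 CPM in rat 42, the second highest, and to 32.0 CPM in rat 45, the second lowest. The part of other cells in the values of the 8 genes was not tested, and in these bulk ganglia more cells of a type and more RNA per cell cannot be told apart.

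Across groups the sums of the 5 Schwann cell markers were the only ones of 9 lists to differ by an exact permutation test at an unadjusted p under 0.05. They ran from 2265 to 3482 CPM in naïve rats, from 1905 to 2866 CPM with GFP (exact permutation p = 0.0368) and from 2264 to 2779 CPM with NT3 (p = 0.0476). Rat 45 was low in this list (2265 CPM). The macrophage sums did not pass with GFP (exact permutation p = 0.677) or NT3 (p = 0.957).
Of the plasmacytoid dendritic cell markers, which stand for the main interferon-producing cells of blood, Il3ra and Bcl11a had 5 to 57 and 16 to 53 reads per rat, and Siglech had no row matched by symbol. Their sum was 3.42 to 5.57 CPM in naïve rats, 2.79 to 5.57 CPM with GFP and 3.43 to 6.94 CPM with NT3, and rat 45 had rank 11 of the 18. Bcl11a is also made in sensory neurons. The neuron, satellite glia and endothelium sums overlapped between all groups. Most of the neuron sum was Nefh, and neuron and satellite glia markers counted under several identifiers added few reads to their sums.

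Interferon genes themselves were at the edge of detection. Of 11 ligand genes sought, 6 had a row (Ifna2, Ifna4, Ifna5, Ifnb1, Ifnk and Ifng), and none had more than 5 reads in a rat, so that 0 could be tested. Ifnb1, the main early type I interferon, had 0 to 1 reads per naïve rat, 0 to 2 per rat with GFP and 0 to 1 with NT3. Ifng, the type II interferon of T and NK cells, had 0 reads in each naïve rat, 0 to 1 per rat with GFP and 0 to 5 with NT3. All 5 Ifng reads with NT3 were in rat 17. No difference in ligands was detectable at this depth.

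Of the type I receptor, Ifnar1, listed under 1 of its 2 counted identifiers, had 2 to 9 reads per rat and could not be tested, and Ifnar2 had no row. As for Mx1, reads that fit several identifiers were not counted, so the level of Ifnar1 RNA is unknown here. Of the 12 rows of other receptors and of transducers that could be tested, 0 were called in each of the 4 comparisons, and their median log2 fold change was -0.03 with GFP and -0.01 with NT3 against naïve rats. Stat2 and Irf9, which act together at the response element, had log2 fold changes of -0.00 and -0.08 with GFP and 0.08 and -0.08 with NT3. The kinases Jak1 (0.04 and -0.01) and Tyk2 (0.04 and 0.16) and the type II receptor subunits Ifngr1 (-0.04 and -0.05) and Ifngr2 (-0.02 and 0.06) had the log2 fold changes given with GFP and with NT3.

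Sensors and regulatory factors gave no calls either. None of the 12 sensors and adaptors tested was called in any of the 4 comparisons, with medians of -0.05 with GFP and -0.06 with NT3 against naïve rats. The interferon regulatory factors other than Irf7 were 6 in the comparisons of a pair of groups and 7 in the fit on all rats, and 0 were called. Irf3, the factor that starts interferon transcription, had log2 fold changes of 0.07 ± 0.13 with GFP and 0.13 ± 0.13 with NT3, and Irf1, which responds to type II interferon, had 0.02 ± 0.18 and 0.35 ± 0.32.

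A longer list of 69 other interferon-stimulated genes had 52 in the table, of which 46 to 48 were tested. With GFP against naïve rats 2 of 47 were called, both lower. One of them was Gbp2, a guanylate-binding GTPase (log2 fold change -0.52 ± 0.23, edgeR p = 0.0358, exact permutation p = 0.0952). With NT3 against naïve rats 2 of 47 were called, both higher. These were the membrane protein Ifitm1, which hinders virus entry (0.38 ± 0.16, edgeR p = 0.0352, exact permutation p = 0.0671), and Tor3a (0.28 ± 0.11, edgeR p = 0.0281, exact permutation p = 0.0303). NT3 against GFP gave 0 calls of 46, and with both injected groups against naïve rats 1 of 48 was, namely Oas2, a relative of Oas1a (-0.80 ± 0.35, edgeR p = 0.0353, exact permutation p = 0.117). The shares were close to or below those of all genes, and none of the genes called had an adjusted p under 0.607 with edgeR.

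Over all pathway rows the median log2 fold change against naïve rats was -0.06 with GFP (77 rows, 54 below 0). With NT3 it was -0.01 (77 rows, 42 below 0). Over all genes tested the medians were 0.01 with GFP and 0.00 with NT3, and 43.9% and 49.9% of genes were below 0. Without rats 42 and 45 the pathway medians were 0.05 and 0.14, Gbp2 was at -0.19 and Oas2 at 0.07, while Ifitm1 (0.40) and Tor3a (0.27) were nearly as before. Gbp2 had 667.0 to 1876 normalized counts in naïve rats, 485.3 to 953.0 with GFP and 598.9 to 2168 with NT3, with rat 45 highest among naïve and rat 17 highest among NT3 rats. For Oas2 the highest rat was 45 among naïve rats (45.1), 5 with GFP (20.7) and 17 with NT3 (18.6), the same rats that led the 8 genes.

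**Figure D4:**
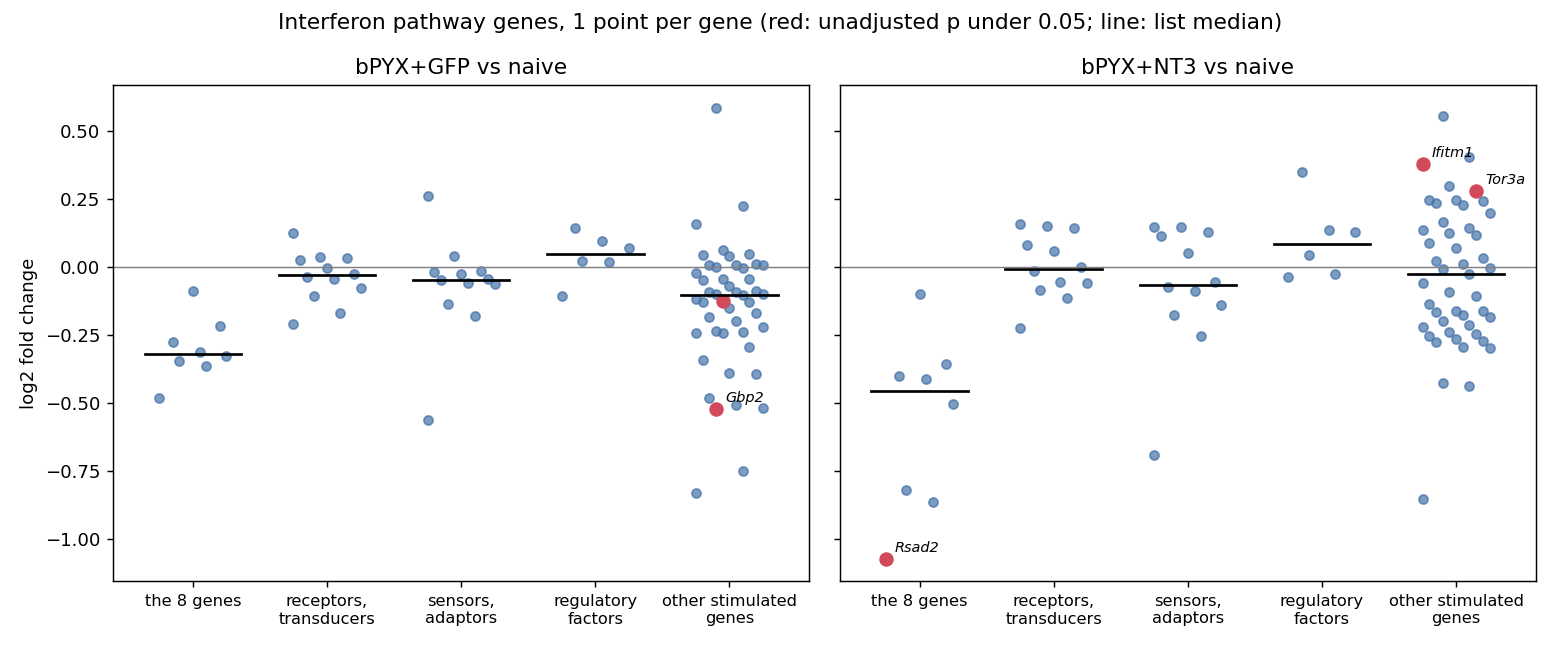
Log2 fold changes of the 8 genes and of the pathway rows by role, 1 point per row, for bPYX+GFP and bPYX+NT3 rats against naïve rats, which share the naïve rats. Red points have an unadjusted p under 0.05 and lines are list medians, which lie at -0.32 and -0.46 for the 8 genes and between -0.10 and 0.09 for the other lists.

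The genes whose levels followed the mean log2 CPM of the 8 genes most closely over the 18 rats were RT1-S3 (Spearman's rho 0.92), Gbp5 (0.87), Plek (0.87), the unnamed identifier NM_001106645 (0.85), Rtp4 (0.85), Igtp (0.85), Slfn4 (0.85) and Map3k8 (0.84). RT1-S3 is a nonclassical class I histocompatibility gene, Gbp5 and Igtp are interferon-induced GTPases, and Plek is a protein of platelets and leukocytes. Of these 8 genes, 3 (Gbp5, Rtp4 and Igtp) were on the pathway lists. When the 2 rats farthest from the median score were left out, rho stayed between 0.79 and 0.88 over the remaining 16 rats. The pathway rows tested had a median rho of 0.46 with the score, and all genes other than the 8 had a median of -0.01. In RT1-S3 rat 45 (1349 normalized counts) and rat 42 (1144) were again first and second, against a median of 840.3, and in Slfn4 rat 45 (1539) was first and rat 42 (1189) had rank 4, against a median of 532.5. In Plek rat 45 had rank 5 and rat 42 rank 3. These likenesses are a description over rats that share libraries and scaling, and 8 genes were picked from 11813.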

How the data were processed

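Poly(A) RNA of 18 rats was measured. The authors used TopHat2 to align the read pairs to Rnor_6.0, kept the best of each set of duplicates with Picard, and counted reads per RefSeq identifier with HTSeq. The deposited counts are whole numbers without normalization, and the strand setting of the counting is not given in the sources used here. Reads assigned to no gene (no-feature share 30.8% to 34.6%, ambiguous 2.79% to 3.41%, several locations 19.0% to 22.3%) were left out of library sizes. Groups follow the headings of the authors' table of all rats. Small RNAs were not analysed here.

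Symbols were taken from RefSeq, where 14193 of 15075 identifiers had 1 symbol. Each pair of groups was fitted in edgeR 4.0.16 (R 4.3.3; TMM, estimateDisp, glmQLFit, glmQLFTest) over the genes for which at least 6 of the rats fitted had over 10 reads, and both injected groups against naïve rats in 1 fit of 18 rats. P-values are two-sided and adjusted p-values follow Benjamini and Hochberg over all genes tested. The SE is the absolute log2 fold change divided by the square root of F, and the 95% interval uses edgeR's degrees of freedom. Exact permutation tests used log2 CPM with a prior count of 2. The fits were tested on simulated counts. Tables, tests of single values and figures were made in Python 3.11.15 (scipy 1.17.1, numpy 2.4.6, pandas 2.3.3, matplotlib 3.10.9).

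The genes, the pathway and cell marker lists and the rules were chosen with earlier results of these data known. Named were the members, the ligands, the receptor chain with Irf1 and Irf3, other listed genes called in a comparison, the 8 genes most like the members, and the most and least counted cell markers, of which some are given as sums only. In the pathway lists Oas1g is an older name of Oas1a and was not counted again. Genes with several identifiers are uncertain, and some listed genes are counted but not reported here by name. Alternatives tried were DESeq2 1.42.0, the likelihood ratio test of edgeR, size factors from DESeq2, no filter on low counts, the other set of rats in the fit (all groups for the pairs, pooled injected rats for the last), the single-count groups, a prior count of 0.5 for the score and leaving out each rat. Leaving out naïve rats 42 and 45 together and the replicate block were added after seeing the data.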

Additional observations from a re-analysis of the deposited data

Results flagged for a closer look

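Within the 3 groups, the 8 tested genes gave 24 groups of 6 rats, and in 3 of them 1 rat stood apart by Dixon's ratio on log2 CPM (limit 0.625 for 6 rats). Chance alone flags about 1 in 20 such groups. Irf7 was 93.5 normalized counts in bPYX+GFP rat 5, while the other 5 rats of that group lay between 63.0 and 69.1. Mx2 was 1477 in bPYX+NT3 rat 17, above 1187 in the next rat of its group. Ifit2 was 387.2 in bPYX+GFP rat 57, the lowest of its group. The whole library of rat 57 was apart from its group. Chi-square per gene between 2 rats' counts, scaled to the same total, was 24.6 to 51.3 for rat 57. Among the other 5 rats it was 3.27 to 8.14. Rat 11 was likewise apart among NT3 rats (21.7 to 53.6, against 4.30 to 14.8 without it). Rat 57 was the lowest of 18 in Mx2, and rat 11 in Ifit2 and Rsad2. The part of these libraries in the values was not tested. Rat 45 met this limit in none of the 8 genes.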

How the results depend on the processing

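For the 32 log2 fold changes of the 8 genes, DESeq2 and edgeR's likelihood ratio test each kept the direction of all 32 and the side of the threshold of 29, with 3 more calls each. DESeq2's size factors ended 1 call, and no filter on low counts and the other set of rats in the fit each added 2. A prior count of 0.5 moved no log2 CPM by more than 1 SD of its group. Members called with NT3 against naïve rats were 3 with DESeq2, 3 with edgeR's likelihood ratio test, 3 with no filter, 3 with the other set of rats and 0 with the single-count groups. Over all 11693 genes in that comparison DESeq2 called 819 and the likelihood ratio test 744, against 703 in the main fit. Between NT3 and GFP the members called were 1 with DESeq2 and 1 with that likelihood ratio test, which called 211 and 184 of all 11623 genes. With both injected groups the members called were 0 with DESeq2's size factors, 0 with the single-count groups and 0 with the replicate block. Calls are not counted for the fits without rats 42 and 45, since these rats were left out for their high values in the same genes. Pathway rows called with GFP were 1 with DESeq2's size factors, 1 under the likelihood ratio test, 1 with no filter, 0 with the other set of rats, 0 with the single-count groups and 4 with the replicate block. Over all 11601 genes the likelihood ratio test called 342 and the replicate block 316. With NT3 against naïve rats the pathway rows called were 1 with the other set of rats and 5 with the replicate block, which called 2962 of all 11693 genes. With both injected groups they were 2 with the single-count groups. Shares over all genes are not given here for the other settings, so those counts are not read as results about the listed genes. The causes were not tested.

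Under the single-count groups, log2 fold changes turned above 0 with GFP against naïve for Mx2 (0.00471), Ifit2 (0.15), Ifit3 (0.30), and with NT3 against naïve for Irf7 (0.15), Mx2 (0.19), Oas1a (0.025), Ifit2 (0.18), Ifit3 (0.079), Rsad2 (0.44) and Usp18 (0.19). Between NT3 and GFP they turned for Irf7 (0.26), Mx2 (0.19), Isg15 (0.11), Oas1a (0.31), Ifit2 (0.042), Rsad2 (0.66) and Usp18 (0.53), and with both injected groups for Irf7 (0.024), Mx2 (0.10), Ifit2 (0.17), Ifit3 (0.20) and Rsad2 (0.11).

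Without rats 42 and 45 they turned with GFP for Irf7 (0.21), Mx2 (0.073), Isg15 (0.67), Oas1a (0.60), Ifit2 (0.063), Ifit3 (0.31), Rsad2 (0.23) and Usp18 (0.44), with NT3 for Irf7 (0.19), Isg15 (0.66), Oas1a (0.15) and Ifit3 (0.27), and with both injected groups for Irf7 (0.20), Mx2 (0.011), Isg15 (0.66), Oas1a (0.37), Ifit3 (0.29) and Usp18 (0.18).

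Whether the numbers that the titles give rats within a group pair them could not be decided. The correlations of same-numbered rats' deviations ran from -0.40 to 0.53 over 18 pairs (median 0.22), and 4 were the best of their rat among 6 candidates. With this number as a replicate block, 2962 of 11693 genes were called between NT3 and naïve rats, against 703 without it. The log2 fold change of Isg15 turned to 0.048 with GFP, 0.040 with NT3, 0.0069 between NT3 and GFP and 0.019 with both injected groups. The block ended the Mx2 call and kept that of Rsad2 (-0.94).

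The share of all genes called in each fit that left out 1 rat is not given here. The counts of such fits are thus not read as results about the 8 genes or the pathway rows. Leaving out 1 rat gave 0 to 0 members called with GFP against naïve rats. With NT3 the range was 0 to 4, namely 0 without rat 45, 2 without rat 23, 3 without rat 49 or 17 and 4 without rat 41 or 43. Between NT3 and GFP it was 0 to 3, namely 1 without rat 18, 2 without rat 17 and 3 without rat 57. With both injected groups it was 0 to 6, namely 0 without rats 42, 45, 15, 18, 57, 2, 11, 23, 39 or 40, 3 without rat 41, 49 or 5, 4 without rat 17 and 6 without rat 43. Pathway rows called ranged from 0 to 6 with GFP (0 without rat 42, 45 or 15, 1 without rat 44, 5, 18, 52 or 57, 4 without rat 43, 5 without rat 21 and 6 without rat 49) and from 0 to 7 with NT3 (0 without rat 44 or 11, 1 without rat 49 or 2, 3 without rat 42, 4 without rat 41 and 7 without rat 17). For NT3 against GFP they ranged from 0 to 7 (1 without rat 17, 2 without rat 39 or 40 and 7 without rat 57), and with both injected groups from 0 to 7 (0 without rat 45, 52, 57 or 40, 2 without rat 18, 21 or 39, 3 without rat 43, 49 or 5 and 7 without rat 17). Log2 fold changes that turned direction ranged with GFP from -0.50 to 0.035 for Ifit3, -0.30 to 0.32 for Isg15, -0.77 to 0.12 for Rsad2 and -0.61 to 0.15 for Usp18, and with NT3 from -0.22 to 0.31 for Isg15. For NT3 against GFP the ranges were -0.15 to 0.11 for Ifit3, -0.15 to 0.084 for Irf7 and -0.14 to 0.21 for Isg15, and with both injected groups from -0.53 to 0.010 for Ifit3 and -0.21 to 0.31 for Isg15. The 8 genes picked by Spearman's rho as most like the members had values of Pearson's r between 0.61 and 0.93.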

Other observations

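Genes of 3 chemokines and of Irf8 were picked from the pathway lists after their values were seen. Cxcl10, which interferon induces, had median normalized counts of 68.1 in naïve rats, 64.0 with GFP and 62.1 with NT3, and it was called in none of the 4 comparisons. Rat 45 (335.8) and rat 17 (271.4) stood far above the next rats of their groups (116.8 and 76.0). Cxcl9 had medians of 101.0, 55.3 and 59.99 in the same order and was also called in none, with rat 17 (460.6) far above the next NT3 rat (70.2). Ccl5, a chemokine of T cells, had means of 10.1 in naïve rats and 14.9 with GFP, a log2 fold change of 0.59 (exact permutation p = 0.229). Irf8, a factor of myeloid cells, was too low for the fits on pairs of groups, and in the fit on all rats it differed from naïve rats by -0.38 ± 0.41 on the log2 scale (exact permutation p = 0.228).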
